A study of Mus musculus with 9 samples.

Results

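The 6 lymphoid-associated receptor genes Cd7, Cd226, Cd96, Cd244a, Cd69 and Thy1 are described here, out of 19938 genes measured with a probe set of their own in progenitors of dendritic cells (DCs). They were chosen by their own signals on these arrays, several of them because they differed strongly between the populations, so their differences are given as descriptions without a test. Each had 1 probe set that carries its symbol alone. The study sorted cells from mouse bone marrow and hybridized 9 microarrays, 3 for each of 3 populations. Every mouse was heterozygous for a Zbtb46-GFP reporter, whose green fluorescence reports transcription of Zbtb46, a factor of classical DCs. The populations, in the developmental order in which they are read here, were reporter-negative common DC progenitors (Zbtb46- CDPs), their reporter-positive counterparts (Zbtb46+ CDPs) and Pre-CD8 DCs, the precursors of CD8+ DCs. The first step below is the Zbtb46+ CDPs set against the Zbtb46- CDPs, the second step the Pre-CD8 DCs against the Zbtb46+ CDPs, and the Pre-CD8 DCs against the Zbtb46- CDPs span both. No untreated or wild-type group is among these arrays, the reporter allele is shared by all of them, and the labels give neither age nor sort gates. They do not say whether the 3 arrays of a population came from separate mice, pools or days.

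These receptors are best known from T cells, natural killer (NK) cells and innate lymphoid cells. Cd226 and Cd96 are immunoglobulin-like receptors that bind ligands of the nectin family, chiefly Pvr, and Cd226 activates NK and T cells. Cd244a, also called 2B4, is a receptor of the SLAM family whose ligand is Cd48. Cd69 is a lectin-like protein that appears early on activated lymphocytes and holds them in tissue by drawing S1pr1 from the surface. Cd7 is an immunoglobulin-like protein of T cells, NK cells and early progenitors, and Thy1 is the lipid-anchored glycoprotein of mouse T cells and neurons. CDPs are bone marrow cells that give rise to classical and plasmacytoid DCs, and Pre-CD8 DCs are committed to the CD8 lineage now called cDC1.

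Promoter sequences from RefSeq's table (build GRCm38.p6) were examined for 2 of the 6 receptors, Cd244a and Cd96. Those of the other receptors, Cd226 among them, were not examined, and nothing is said here about their motifs. The signal of Cd244a was higher, and that of Cd96 lower, in the Pre-CD8 DCs than in either CDP population. Each sequence runs 5′ to 3′ on the strand of the gene, from 250 bases before the start of the transcript to 50 after it. That of Cd244a lies on the plus strand at chr1:171558943-171559242, and that of Cd96 on the minus strand at chr16:46120199-46120498. Capitals mark matches to an AP-1 site, the type of site that Batf and Jun factors use, or to a composite site of Ets and interferon regulatory factors.
Cd244a: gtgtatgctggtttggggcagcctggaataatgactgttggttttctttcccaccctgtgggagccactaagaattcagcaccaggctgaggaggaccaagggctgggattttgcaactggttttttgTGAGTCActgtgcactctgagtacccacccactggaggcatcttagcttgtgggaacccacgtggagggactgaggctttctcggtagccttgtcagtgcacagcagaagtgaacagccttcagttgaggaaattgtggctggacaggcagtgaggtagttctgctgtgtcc
Cd96: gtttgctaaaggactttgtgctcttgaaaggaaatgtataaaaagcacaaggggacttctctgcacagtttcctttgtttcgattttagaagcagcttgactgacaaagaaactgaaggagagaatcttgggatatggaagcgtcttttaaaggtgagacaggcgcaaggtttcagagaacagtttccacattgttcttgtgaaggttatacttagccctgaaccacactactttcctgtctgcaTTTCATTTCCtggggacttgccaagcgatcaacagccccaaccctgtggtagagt

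A total of 5 motifs were searched on both strands. The AP-1 letters TGANTCA matched once in Cd244a, starting 122 bases before the start of the transcript, and not in Cd96. Such a match is held by 7.81% of the 32851 promoters of this length in the table. The composite site, read as GGAA and then GAAA after a gap of any 2 bases, matched once in Cd96 with its first base 5 bases before the transcript start, and not in Cd244a. Of all promoters 2.72% hold one. The E box CANNTG matched at 3 places in Cd244a and at none in Cd96, against 72.3% of promoters with a match. The Runx letters TGTGGT matched 2 times in Cd96 and not in Cd244a (16.8% of promoters hold them), and the Ets core GGAAG matched once in Cd96 and not in Cd244a (71.4% of promoters). None of the matches overlapped a match to another of the 5 motifs. A match is a run of letters and was not tested as a binding site.

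The median signal of an array was 110.2 or higher on the linear scale, and with 3 arrays a population the precision is set by that number. All signals below are log2 of the deposited signal. The median over the whole table was 6.82, and for signals near it or under it the files do not show whether they exceed background. Where 1 of the populations compared is that dim, the fold change given may be too small. In sorted populations, fewer cells with a transcript and less transcript per cell cannot be told apart. Replicate 1 of both CDP populations stood apart. Xist, the transcript of the inactive X chromosome, was at 5.30 on that array of the Zbtb46+ CDPs and at 5.59 on that of the Zbtb46- CDPs, and between 11.85 and 12.29 on the other 7. Ngp, a neutrophil granule gene, exceeded the mean of replicates 2 and 3 by 6.80 in replicate 1 of the Zbtb46+ CDPs and by 4.21 in replicate 1 of the Zbtb46- CDPs. The values of the receptors are therefore also given without both arrays. The labels were set against marker genes. Csf1r, a receptor that defines CDPs, averaged 11.22, 10.31 and 7.56 in the Zbtb46- CDPs, the Zbtb46+ CDPs and the Pre-CD8 DCs, while Clec9a, a lectin of the cDC1 lineage, averaged 9.10, 9.41 and 11.29. Of 10 markers of the cDC1 lineage, 6 rose and 0 fell at each step. Among the 6 that rose at the first step was Zbtb46 itself, whose reporter separated the CDP populations, so its rise is not independent of the sort. Of 6 measured CDP markers, 0 rose and 4 fell at the first step, and 2 rose and 3 fell at the second. Kit, a CDP marker, rose by 0.90 at the second step (limma, adjusted p = 0.00423). Among all genes 3.85% rose and 10.6% fell at the first step, and 4.76% and 1.86% at the second. Zbtb46, the gene behind the reporter, averaged 6.53, 7.24 and 7.51. Cd8a was under the table median in all 3, at 6.44, 6.51 and 6.73.

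**Figure D1:**
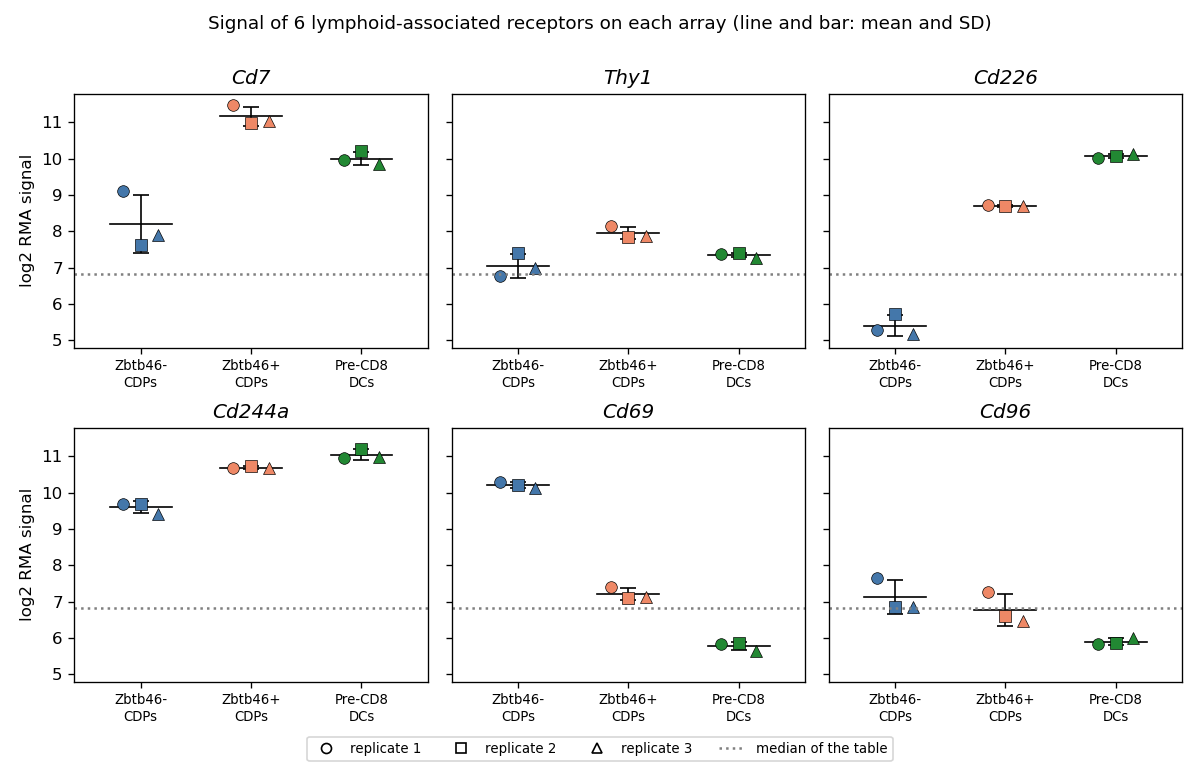
Log2 signal of the 6 receptors on each of the 9 arrays, by population, with the mean and SD of 3 arrays and, dotted, the median of the whole table (6.82). Cd7 and Thy1 were highest in the Zbtb46+ CDPs, Cd226 and Cd244a in the Pre-CD8 DCs, and Cd69 and Cd96 in the Zbtb46- CDPs, where the arrays of Cd96 overlap those of the Zbtb46+ CDPs.

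Cd226, the activating receptor for Pvr and Nectin2, was below the table median in Zbtb46- CDPs and well above it in the other populations. Its log2 signal was 5.29, 5.72 and 5.18 in the Zbtb46- CDPs, 8.72, 8.69 and 8.69 in the Zbtb46+ CDPs, and 10.02, 10.08 and 10.13 in the Pre-CD8 DCs. No arrays of any pair of populations overlapped, and the arrays of the Zbtb46- CDPs lay farthest apart from each other. The mean was 8.70 ± 0.02 in the Zbtb46+ CDPs and 5.40 ± 0.29 in the Zbtb46- CDPs (SD, n = 3 each), a log2 difference of 3.30 (SE 0.126) or 9.87-fold. From these dim arrays the fold may be an understatement. Between the Pre-CD8 DCs, at 10.08 ± 0.06, and the Zbtb46+ CDPs the difference was 1.38 (SE 0.126), or 2.6-fold. Over both steps the signal was 25.7-fold higher in the Pre-CD8 DCs than in the Zbtb46- CDPs. Ranked among all 19938 genes from the largest positive difference down, Cd226 stood at place 9 at the first step and at place 85 at the second. Without replicate 1 of the CDP populations the differences were 3.24 and 1.39.

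Cd96, which shares the ligand Pvr with Cd226, ran the other way and at a lower signal. The arrays gave 7.66, 6.85 and 6.86 in the Zbtb46- CDPs, 7.27, 6.59 and 6.46 in the Zbtb46+ CDPs, and 5.83, 5.86 and 6.0 in the Pre-CD8 DCs. The CDP populations overlapped, whereas all Pre-CD8 DC arrays lay below all CDP arrays. In the Zbtb46+ CDPs the mean was 6.77 ± 0.43 and in the Zbtb46- CDPs 7.12 ± 0.47 (SD, n = 3 each), so their difference of -0.35 (SE 0.254) was smaller than the spread between arrays. The Pre-CD8 DCs, at 5.90 ± 0.09, differed from the Zbtb46+ CDPs by -0.88 (SE 0.254) and from the Zbtb46- CDPs by -1.23, a signal 2.34-fold lower. Replicate 1 exceeded the mean of replicates 2 and 3 by 0.74 in the Zbtb46+ CDPs and by 0.81 in the Zbtb46- CDPs, on the arrays that were low in Xist and high in Ngp. Whether those features and the Cd96 signal are linked was not tested. With both arrays left out, the differences were -0.33 at the first step, -0.63 at the second and -0.96 over both. All Pre-CD8 DC arrays and 2 of the 3 Zbtb46+ CDP arrays were below the table median, so the level of Cd96 there was not shown to exceed background.

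Cd244a, the receptor for Cd48, was well above the table median on every array and was higher in each later population of the developmental order. Its signal was 9.70, 9.68 and 9.42 in the Zbtb46- CDPs, 10.67, 10.73 and 10.67 in the Zbtb46+ CDPs, and 10.96, 11.21 and 10.98 in the Pre-CD8 DCs. The 3 populations did not overlap. The mean in the Zbtb46+ CDPs was 10.69 ± 0.04, against 9.60 ± 0.16 in the Zbtb46- CDPs (SD, n = 3 each), a difference of 1.09 (SE 0.1) or 2.13-fold. The Pre-CD8 DCs, at 11.05 ± 0.14, were above the Zbtb46+ CDPs by 0.36 (SE 0.1), or 1.28-fold. That second difference was 0.22 after quantile normalization of the arrays. Without replicate 1 of the CDPs the first difference was 1.15 and the second 0.35.

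Cd69, the early activation antigen, had the most negative first-step difference of all 19938 genes. The arrays read 10.29, 10.22 and 10.13 in the Zbtb46- CDPs, 7.41, 7.10 and 7.13 in the Zbtb46+ CDPs, and 5.83, 5.86 and 5.65 in the Pre-CD8 DCs. All 3 populations were separate from one another, by far more than their arrays differed within any of them. Signal averaged 7.21 ± 0.17 in the Zbtb46+ CDPs and 10.21 ± 0.08 in the Zbtb46- CDPs (SD, n = 3 each), a difference of -3.0 (SE 0.103), which is 8.0-fold lower. It averaged 5.78 ± 0.11 in the Pre-CD8 DCs, a further difference of -1.44 (SE 0.103) from the Zbtb46+ CDPs or 2.70-fold lower. Over both steps Cd69 was 21.6-fold lower in the Pre-CD8 DCs than in the Zbtb46- CDPs, the 7th most negative of all differences. Since the Pre-CD8 DC arrays were below the table median, this fold may be an understatement too. Without replicate 1 of the CDPs the first difference was -3.06 and the second -1.34.

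Cd7 was the receptor with the widest spread between arrays, and it was highest in the Zbtb46+ CDPs. Its signal was 9.11, 7.62 and 7.89 in the Zbtb46- CDPs, 11.47, 10.98 and 11.04 in the Zbtb46+ CDPs, and 9.97, 10.20 and 9.84 in the Pre-CD8 DCs. The 3 populations did not overlap, and replicate 1 was the highest array in both CDP populations, by 1.35 over the mean of replicates 2 and 3 in the Zbtb46- CDPs. Means were 11.16 ± 0.27 in the Zbtb46+ CDPs and 8.20 ± 0.79 in the Zbtb46- CDPs (SD, n = 3 each), so the difference was 2.96 (SE 0.334), or 7.77-fold, at place 12 from the top of all genes. The Pre-CD8 DCs, at 10.00 ± 0.19, were 2.24-fold lower than the Zbtb46+ CDPs (difference -1.16, SE 0.334) and 3.47-fold higher than the Zbtb46- CDPs (difference 1.80, SE 0.334). Without replicate 1 of the CDPs the first difference was 3.25, or 9.54-fold, and the second -1.01.

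Thy1 had the same order of means as Cd7 at a lower signal and with smaller differences. Its arrays were at 6.76, 7.41 and 6.99 in the Zbtb46- CDPs, 8.15, 7.83 and 7.87 in the Zbtb46+ CDPs, and 7.38, 7.39 and 7.27 in the Pre-CD8 DCs. The Zbtb46+ CDPs lay above both other populations, while the Pre-CD8 DCs lay within the range of the Zbtb46- CDPs. The mean of the Zbtb46+ CDPs was 7.95 ± 0.17 and that of the Zbtb46- CDPs 7.05 ± 0.33 (SD, n = 3 each), a difference of 0.90 (SE 0.157) or 1.86-fold. With the Zbtb46- CDP arrays near the table median, this fold may be an understatement. The Pre-CD8 DCs, at 7.35 ± 0.07, were 1.52-fold lower than the Zbtb46+ CDPs (difference -0.61, SE 0.157). Their difference of 0.29 (SE 0.157) from the Zbtb46- CDPs was within the spread of the Zbtb46- arrays. Without replicate 1 of the CDPs the first difference was 0.65, or 1.57-fold, since the Zbtb46- array left out was the lowest and the Zbtb46+ array the highest of its population.

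**Figure D2:**
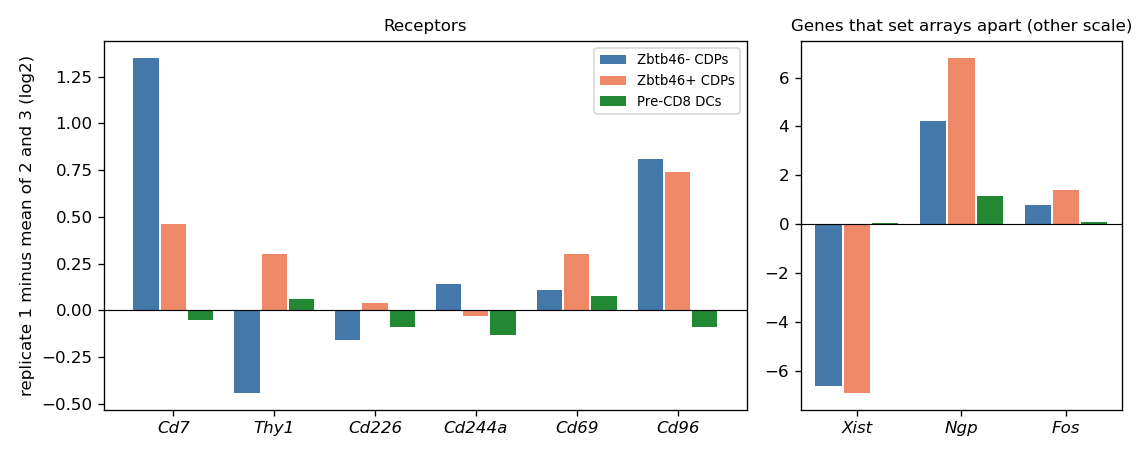
Log2 signal of replicate 1 minus the mean of replicates 2 and 3 in each population, for the 6 receptors on the left and for Xist, Ngp and Fos on the right, on another scale. Cd7 (0.46 and 1.35) and Cd96 (0.74 and 0.81) were higher on replicate 1 in the Zbtb46+ and Zbtb46- CDPs, the arrays low in Xist and high in Ngp, whereas Cd226, Cd244a and Cd69 differed there by at most 0.30 in either direction.

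Set side by side, the receptors followed 3 courses. Cd226 and Cd244a were higher at each step, Cd69 and Cd96 lower at each step, and Cd7 and Thy1 higher at the first step and lower at the second. The arrays of the populations compared did not overlap for 5 of the 6 receptors at the first step (all but Cd96), where 29.3% of all genes did not overlap. They did not overlap for 6 of 6 at the second step, where the share of all genes was 22.9%, and for 5 of 6 (all but Thy1) between the Pre-CD8 DCs and the Zbtb46- CDPs, where it was 33.7%. The receptors were picked on these contrasts, so nothing is read from those counts. The median difference of all genes was 0.04 at the first step, -0.03 at the second and 0.01 over both. In the 14 alternative settings tried for each receptor and comparison none of the differences changed sign. Several of these settings could not change a difference. They were the mean of several probe sets, since each receptor has 1, the replicate block, and leaving out an array of the population not compared. That of Cd96 between the CDP populations came closest to 0, ranging from -0.60 to -0.08.

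**Figure D3:**
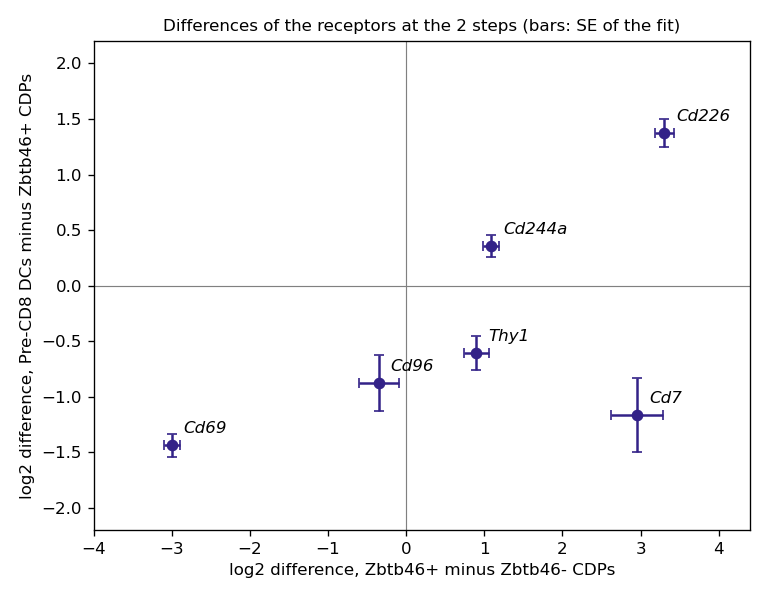
Log2 difference of each receptor between Zbtb46+ and Zbtb46- CDPs (horizontal) and between Pre-CD8 DCs and Zbtb46+ CDPs (vertical), with the SE of the fit as bars; both axes share the Zbtb46+ CDP arrays. Cd226 (3.30 and 1.38) and Cd244a are positive on both axes, Cd69 (-3.0 and -1.44) and Cd96 negative on both, and Cd7 (2.96 and -1.16) and Thy1 positive on the first and negative on the second.

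Other genes with the course of each receptor were ranked by Pearson's r of the log2 signal over the 9 arrays. The ranking took 800 genes whose population means span at least 1 and whose highest mean is at least 8. The arrays fall into 3 populations, so a high r mostly reflects a like order and spacing of 3 means and is given as a description. Thy1 spans less than 1 and was not ranked. Closest to Cd226 was Slamf7, a SLAM receptor (r = 0.996), with means of 5.48, 9.40 and 11.28 in the Zbtb46- CDPs, the Zbtb46+ CDPs and the Pre-CD8 DCs. Cd300lg, the Toll-like receptor relative Cd180 and the metalloprotease gene Adam8 followed with r of 0.993, 0.991 and 0.990. Cd244a was followed most closely by the annexin gene Anxa6 (0.989), the prostaglandin-degrading enzyme gene Hpgd (0.988), the copper transporter gene Slc31a2 (0.988) and the lectin gene Cd209a (0.987).

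Cd69 had the closest matches, among them Gbp7, an interferon-inducible GTPase (r = 0.998), the adhesion receptor gene Adgrl4 (0.998), the hexokinase gene Hk3 (0.996) and Tmem273 (0.996). Adgrl4 averaged 9.82, 7.24 and 6.01 in the 3 populations in developmental order. Cd96 was nearest to the metalloprotease gene Adam15 (0.978), the replication licensing gene Cdt1 (0.976), Nkg7, a granule gene of cytotoxic lymphocytes (0.975), and Entpd4 (0.969). Nkg7 read 9.02 in replicate 1 of the Zbtb46+ CDPs and 9.17 in replicate 1 of the Zbtb46- CDPs, against 7.13 to 8.03 on the other CDP arrays, so it had the same high arrays as Cd96. For Cd7 the nearest were Mxd3, a Max-binding repressor (0.966), Smim5 (0.964), Ak8 (0.943) and Trp53i11 (0.940), and the means of each of them were highest in the Zbtb46+ CDPs.

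**Figure D4:**
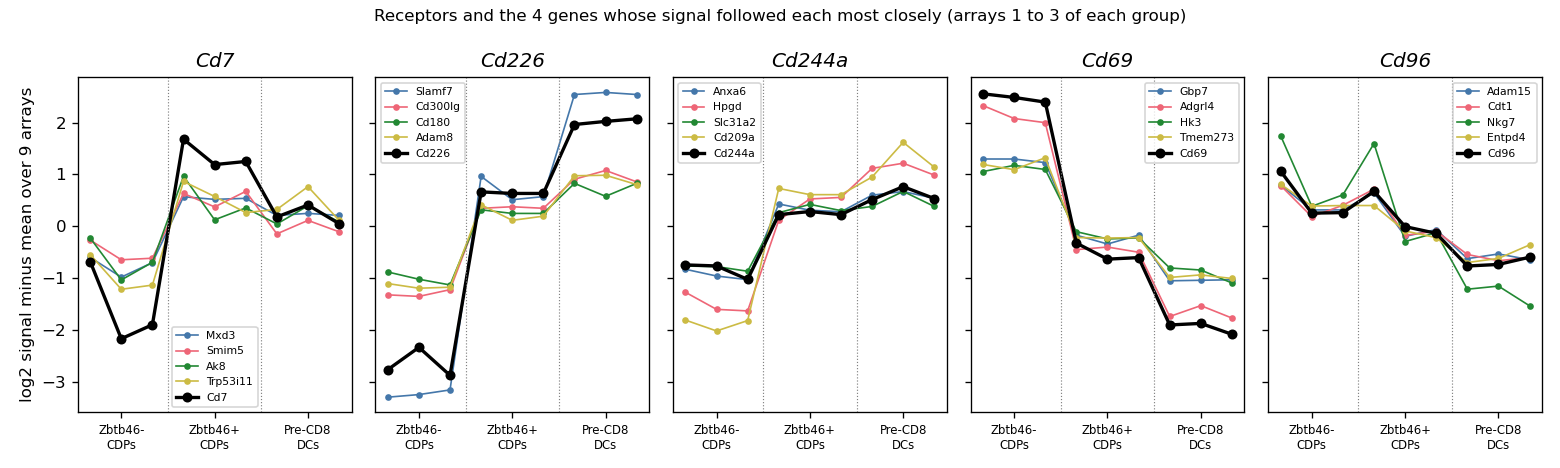
Log2 signal minus its mean over the 9 arrays for 5 receptors (black) and, for each, the 4 genes with the highest Pearson's r among 800 ranked (coloured); arrays 1 to 3 of each population run from left to right. Slamf7 (r = 0.996) runs beside Cd226 with a wider span, and Nkg7 shares with Cd96 the high first array in both CDP populations.

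The ligands, partners, signalling genes and relatives of the receptors were outside the rule that picked the receptors, although these lists too were drawn up with earlier results of these data known. They were tested with limma, with p-values adjusted over all 19938 genes. Of these 57 genes, 5 rose and 5 fell in the Zbtb46+ CDPs relative to the Zbtb46- CDPs (8.77% each), where 3.85% of all genes rose and 10.6% fell. In the Pre-CD8 DCs, 3 rose and 2 fell relative to the Zbtb46+ CDPs (5.26% and 3.51%), against 4.76% and 1.86% of all genes. Relative to the Zbtb46- CDPs, 11 rose and 7 fell (19.3% and 12.3%), against 6.43% and 9.23%.

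Among 10 measured members of the nectin family, 0 rose and 1 fell at the first step, 1 rose and 0 fell at the second, and 2 rose and 0 fell over both. The median differences were 0.11, -0.13 and -0.05, and at an unadjusted p under 0.05 in limma 1 was higher at the first step, 2 were lower at the second and 1 was lower over both. Of all genes, 3.85%, 4.76% and 6.43% rose and 10.6%, 1.86% and 9.23% fell in the 3 comparisons. Pvr, the common ligand of Cd226 and Cd96, was at 7.20, 6.97 and 6.96 in the Zbtb46+ CDPs and at 7.61, 7.43 and 7.33 in the Zbtb46- CDPs, a fall of 0.41 (difference -0.41, SE 0.096, adjusted p = 0.0202). This call was lost without replicate 1 of the Zbtb46- CDPs, without replicate 2 or 3 of the Zbtb46+ CDPs and in a fit of the 2 groups alone. In the Pre-CD8 DCs Pvr was at 7.17 to 7.20. Nectin2, the other ligand of Cd226, averaged 6.20, 6.30 and 6.14 in the 3 populations in developmental order, and the inhibitory receptor Tigit 6.58, 6.77 and 6.54. Both were under the table median in each population and passed the test in none of the comparisons.

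Nectin1, a cell adhesion molecule that binds Cd96 in the mouse, rose by 2.41 (SE 0.397, adjusted p = 0.00286) in the Pre-CD8 DCs relative to the Zbtb46- CDPs. Its arrays were at 9.42, 9.59 and 9.46 in the Pre-CD8 DCs and at 6.92, 7.16 and 7.15 in the Zbtb46- CDPs. The Zbtb46+ CDP arrays lay apart from each other, at 9.14, 7.67 and 7.21, with replicate 1 near the Pre-CD8 DCs. The Pre-CD8 DCs exceeded the Zbtb46+ CDPs by 1.48 without passing the test (adjusted p = 0.0628), and by 2.04 (adjusted p = 0.000137) without replicate 1 of the CDPs. Cadm1, an adhesion molecule of the cDC1 lineage and ligand of Crtam, rose by 0.51 (SE 0.099, adjusted p = 0.0169) at the second step. That call was lost without replicate 3 of the Zbtb46+ CDPs, without replicate 1 or 2 of the Pre-CD8 DCs and in a fit of the 2 groups alone.

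Outside the nectin family, 12 binding partners were measured. Of all genes, 3.85%, 4.76% and 6.43% rose and 10.6%, 1.86% and 9.23% fell in the 3 comparisons. At the first step 2 of the 12 partners rose and 1 fell (median 0.14), and at the second 0 rose and 1 fell (median -0.12). Over both, 2 partners rose and 3 fell (median 0.03). With the replicate number as a block 3 rose at the first step, since the integrin chain gene Itgam, named here after its values were seen, also passed (0.73, adjusted p = 0.00987 in the CDP arrays alone, 0.0321 in all arrays and 0.0794 without the block). Cd48, the ligand of Cd244a, rose by 0.69 (SE 0.092, adjusted p = 0.00148) in the Zbtb46+ CDPs, with 12.76, 13.03 and 13.02 there and 12.29, 12.13 and 12.33 in the Zbtb46- CDPs. It was at 13.07, 13.06 and 13.01 in the Pre-CD8 DCs, 0.11 above the Zbtb46+ CDPs (adjusted p = 0.572). Itgb2, an integrin chain of the LFA-1 complex with which Cd226 associates, rose by 2.38 (SE 0.216, adjusted p = 0.000216) at the first step, with 10.97, 10.21 and 10.28 in the Zbtb46+ CDPs against 8.48, 7.97 and 7.87 in the Zbtb46- CDPs. The gene of the other LFA-1 chain, Itgal, also named after its values were seen, averaged 10.32, 10.35 and 10.06 in developmental order. It passed none of the tests on all arrays. Itgb5, an integrin chain of the family that binds Thy1, fell by 0.92 (SE 0.107, adjusted p = 0.000738) at the first step, and Lgals1 (galectin 1), reported to bind Cd69 and, in human T cells, Cd7, fell by 0.31 (adjusted p = 0.0184) at the second. The call of Lgals1 at the second step was lost when any of the 3 Pre-CD8 DC arrays was left out. S1pr1, the receptor that Cd69 draws from the surface, was at 5.36 to 5.79 on all 9 arrays, under the table median, and passed none of the tests.

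Of 21 measured signalling genes 2 rose at the first step, 1 at the second and 4 over both, and 0 fell in each comparison (medians 0.02, -0.02 and -0.01). At an unadjusted p under 0.05 in limma, 1, 2 and 2 of them were lower in the 3 comparisons. Of all genes, 3.85%, 4.76% and 6.43% rose and 10.6%, 1.86% and 9.23% fell at the adjusted threshold. The Src-family kinase gene Fyn, which SLAM receptors engage through adaptors, rose by 0.97 (SE 0.136, adjusted p = 0.00186) in the Zbtb46+ CDPs, with arrays between 9.21 and 9.49 there against 8.15 to 8.65 in the Zbtb46- CDPs. Plcg2, a phospholipase below immune receptors, rose by 0.37 (adjusted p = 0.0368) at the first step and by 0.67 (adjusted p = 0.00156) over both. The call at the first step was lost in 8 alternative settings, among them without replicate 2 or 3 of either CDP population and without any 1 Pre-CD8 DC array. Vav3, a guanine nucleotide exchange factor, rose by 0.48 (adjusted p = 0.0216) at the second step. This was lost after quantile normalization, in a fit of the 2 groups alone, without replicate 3 of the Zbtb46+ CDPs and without replicate 1 or 3 of the Pre-CD8 DCs. Csk and Inpp5d, both of which restrain such signals, rose by 0.52 and 0.51 over both steps (adjusted p = 0.0441 and 0.0273), and the calls were lost in 7 and 5 settings, among them without replicate 2 or 3 of the Zbtb46- CDPs. Sh2d1b1, which encodes the adaptor EAT-2 of SLAM receptors, was at 7.23 to 7.99 in the Zbtb46- CDPs, 7.87 to 8.03 in the Zbtb46+ CDPs and 7.10 to 7.58 in the Pre-CD8 DCs, and passed none of the tests on all arrays. Without the arrays low in Xist it was higher by 0.62 (adjusted p = 0.0328) at the first step and lower at the second (difference -0.67, adjusted p = 0.0202).

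The lectin-like relatives of Cd69 in the NK gene complex moved in both directions. Of 14 measured, 1 rose and 3 fell at the first step, 1 rose and 1 fell at the second, and 3 rose and 4 fell over both (medians 0.17, -0.11 and 0.03). The shares of all genes in the 3 comparisons were 3.85%, 4.76% and 6.43% for rises and 10.6%, 1.86% and 9.23% for falls. Clec2d, beside Cd69 on the chromosome, fell by 0.88 (SE 0.203, adjusted p = 0.0196) at the first step, a call lost without both arrays low in Xist (adjusted p = 0.0675), and without replicate 1 or 3 of the Zbtb46- CDPs or replicate 2 of the Zbtb46+ CDPs. Klrb1b, the inhibitory receptor for the Clec2d protein, rose by 1.94 (SE 0.102, adjusted p = 1.33e-05) at the second step, to 8.04, 7.82 and 8.18 in the Pre-CD8 DCs against 6.04, 6.18 and 6.01 in the Zbtb46+ CDPs. Klrb1f, a receptor of the same family, fell by 1.57 (SE 0.143, adjusted p = 0.000332) there. Klrk1 and Klrd1, the NK receptors NKG2D and CD94, rose by 1.5 and 1.23 over both steps (adjusted p = 0.00762 and 0.017). The call of Klrd1 was lost without replicate 2 or 3 of the Zbtb46- CDPs or of the Pre-CD8 DCs. At the first step they were higher by 0.92 and 0.87 without passing the test, and by 1.29 and 1.36 (adjusted p = 0.00353 and 0.00385) without the arrays low in Xist. Klrk1 also passed at that step with the replicate number as a block in the fit of all arrays (adjusted p = 0.0441), but not with it in a fit of the CDP arrays alone (adjusted p = 0.0706). Clec2g, which fell by 0.37 (adjusted p = 0.0471), did not pass in that fit of the CDP arrays either (adjusted p = 0.0702). In the same fit Klrb1f passed at the first step (-0.48, adjusted p = 0.023). Members of the Clec2 and Klrb1 families are close copies of each other, and probes of one may take up another's transcript.

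**Figure D5:**
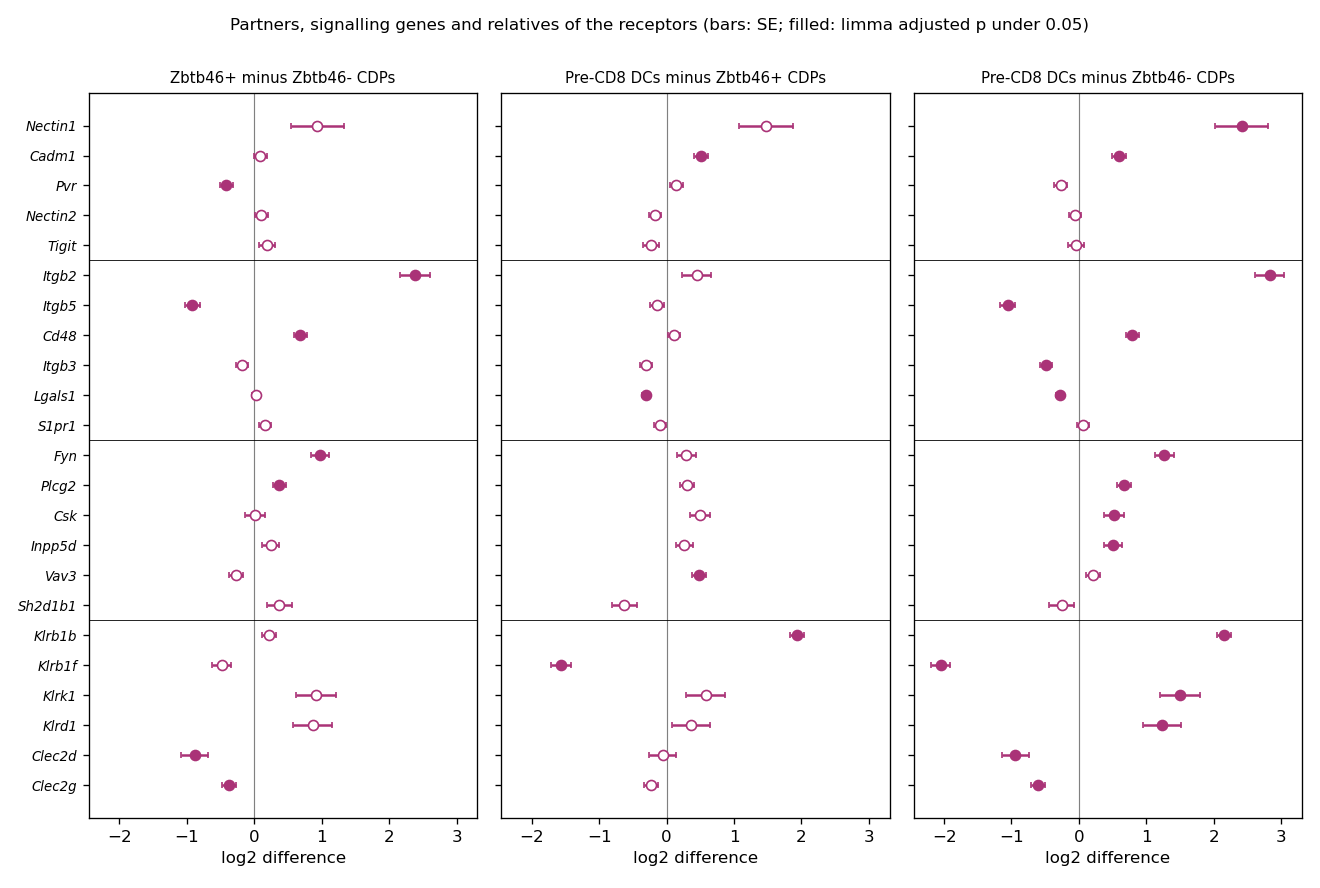
Log2 differences of the named nectin family members, other partners, signalling genes and relatives of Cd69 (blocks from top to bottom) in the 3 comparisons, with the SE as bars and filled points where limma's adjusted p was under 0.05. Itgb2, Cd48 and Fyn rose at the first step (2.38, 0.69 and 0.97), Klrb1b rose and Klrb1f fell at the second (1.94 and -1.57), and Pvr, Clec2d and Itgb5 fell at the first.

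Position was examined through the nearest measured genes in RefSeq's order, 2 on either side of each receptor. Of these 24 genes, 3 rose and 2 fell at the first step, 4 rose and 1 fell at the second, and 4 rose and 3 fell over both. Of all genes, 3.85% rose and 10.6% fell at the first step, 4.76% and 1.86% at the second, and 6.43% and 9.23% over both. Beside Cd244a lie the SLAM genes Ly9 and Slamf7. Slamf7 rose by 3.92 at the first step and by 1.88 at the second, and Ly9 by 0.28 and 0.32 (adjusted p = 0.0135 and 0.0133). Beside Cd69 lie Clec2d and Clec12a, and Clec12a fell by 1.22 (adjusted p = 0.000344) at the first step and rose by 0.49 (adjusted p = 0.0476) at the second. Of the 4 neighbours of Cd7, the lactate transporter gene Slc16a3 rose by 0.38 (adjusted p = 0.00803) at the first step and Csnk1d passed none of the tests. The other neighbours of Cd7, the genes Sectm1b and Sectm1a of the family that provides its ligand in human cells, were at means of 5.67 to 6.19 and passed none of the tests. Nectin1 lies next to Thy1. Among the 4 neighbours of Cd226, Rttn fell by 0.45 (adjusted p = 0.0193) at the second step and the others passed no test, and none of the 4 neighbours of Cd96 passed one.

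Marker lists of cells that the sort gates could have let through were read beside the receptors. Of 22 measured markers of T, NK and innate lymphoid cells, 1 rose and 1 fell at the first step, 0 and 0 at the second, and 1 rose and 2 fell over both. Among all genes 3.85% rose and 10.6% fell at the first step, 4.76% and 1.86% at the second, and 6.43% and 9.23% over both. With the replicate number as a block 2 of the 22 markers rose at the first step. At the second step 0 were higher and 2 lower at an unadjusted p under 0.05 in limma. The T cell antigen genes Cd5 and Cd28 were those called at the first step (0.62, adjusted p = 0.0337, and -0.67, adjusted p = 0.0027), and with Nkg7 (-2.21, adjusted p = 0.0155) over both. Their summed linear signal was 1765 to 2179 in the Zbtb46- CDPs, 1802 to 2521 in the Zbtb46+ CDPs and 1690 to 1812 in the Pre-CD8 DCs, and 17, 16 and 18 of the 22 had a mean under the table median. The defining T cell gene Cd3e was at 6.90 to 7.12 and the NK cell gene Ncr1 at 5.33 to 5.61 on all arrays. Without the arrays low in Xist, 4 of the 22 markers rose and 2 fell at the first step, and 1 rose and 2 fell at the second. In that setting 1737 of all 19938 genes rose and 2758 fell at the first step, and 2496 and 1570 at the second.

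Of 17 early lymphoid and B cell markers, 0 rose and 5 fell at the first step, 0 rose and 1 fell at the second, and 0 rose and 6 fell over both, where 10.6%, 1.86% and 9.23% of all genes fell. Cd69 was lower at both steps and Cd96 at the second. The first-step difference of Cd96 (-0.35, SE 0.254) was smaller than the spread between its arrays, which overlapped. At an unadjusted p under 0.05 in limma, 1, 0 and 1 of the 17 markers were higher. Their summed signal was 3207 to 4738 in the Zbtb46- CDPs, 2088 to 2600 in the Zbtb46+ CDPs and 1827 to 1870 in the Pre-CD8 DCs. Cd27, a receptor of lymphoid cells and progenitors, fell by 1.92 (adjusted p = 0.000181) and then by 0.96 (adjusted p = 0.0104). Dntt, the polymerase that diversifies antigen receptors, fell by 2.49 (adjusted p = 0.0078) at the first step. The part of such cells in the signal of the receptors was not tested. Of 10 plasmacytoid DC markers, 1 rose and 1 fell at the first step, 1 rose and 0 fell at the second, and 2 rose and 3 fell over both, with a summed signal of 7564 to 8880 in the Zbtb46- CDPs, 8589 to 9609 in the Zbtb46+ CDPs and 9739 to 10294 in the Pre-CD8 DCs. Pld4 averaged 11.38, 12.18 and 12.41 in developmental order. Over both steps Pld4 and Ccr9 were the markers that rose, while Siglech and Tcf4 fell by 0.75 and 0.69 (limma, adjusted p = 0.00844 and 0.0111). Among all genes 3.85%, 4.76% and 6.43% rose and 10.6%, 1.86% and 9.23% fell in the 3 comparisons. With the replicate number as a block 2 of the plasmacytoid DC markers rose and 2 fell at the first step. Neutrophil granule markers summed to 27162 to 31789 in the Zbtb46- CDPs, 7718 to 32004 in the Zbtb46+ CDPs and 980 to 1988 in the Pre-CD8 DCs. In the Zbtb46- CDPs most of that sum came from Mpo, Prtn3, Ctsg and Elane, which averaged 13.63, 12.97, 11.75 and 11.35. The other 6 genes averaged 6.49 to 8.61 there. Of these 10 genes 3 fell at the first step (Mpo, Prtn3 and Ctsg) and 4 at the second (the same and Elane), and 0 rose at either. Mpo averaged 13.63, 11.91 and 6.08 in developmental order. The other 6, among them Ngp, passed the test at neither step. Ngp averaged 7.68, 7.83 and 7.54 and was highest on replicate 1 in both CDP populations.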

How the data were processed

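Values were the intensities of mouse whole-transcript gene arrays that the authors summarised with RMA in Affymetrix Expression Console, per the submitters' processing notes. The deposited intensity values are linear (7.45 to 20455.6). The versions and any background filter are not given in the sources used here. Here log2 was taken and 21789 of 28853 probe sets that carry 1 symbol were kept (1621 carry several and 5443 are unnamed), with the highest mean for the 999 genes that have several, leaving 19938 genes. Symbols came from the platform annotation. RefSeq order gave neighbours.

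All 9 arrays, 3 a population, entered 1 fit of group means in limma 3.58.1 (lmFit, eBayes; R 4.3.3), with Benjamini-Hochberg adjustment over all genes and 0.05 as threshold, checked on simulated data. A rose or fell call means that limma's adjusted p passed it. Since the labels name no separate mice, p-values measure the spread between arrays. No array pair was identical. The receptors and all gene lists were chosen with earlier results of these data known. Symbols Pvrig, Cadm2, Lck, Lyn and Clec2f of the receptor lists had no probe set of their own. The text names the receptors and Pvr, Nectin2, Cd48, Tigit, S1pr1 and Sh2d1b1 always, up to 6 called genes of each partner list and 4 of each marker list by size of difference, and the 4 genes most like each receptor; neighbours on the chromosome were added after the values were seen.

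Deviations from the population means of same-numbered arrays correlated at 0.51, 0.42 and 0.36 between the Zbtb46+ and Zbtb46- CDPs. Replicate 2 of the Zbtb46+ CDPs and replicate 3 of the Zbtb46- CDPs correlated at 0.38, so the numbers may not mark pairs. The main fit used no pairing, and the replicate number entered as a block only among the alternatives. With the Pre-CD8 DCs same-numbered arrays correlated at -0.03 to 0.17. Alternatives were quantile or median scaling, the mean of several probe sets, no dim genes, trended moderation, array weights, fewer arrays, only the groups compared and a replicate block.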

Additional observations from a re-analysis of the deposited data

How the results depend on the processing

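Across 14 alternative settings, several of which could not change a difference, none of the 18 differences of the receptors changed sign. Of them 3 moved by more than the spread between arrays. After quantile normalization Cd244a differed by 1.21 at the first step (Zbtb46+ against Zbtb46- CDPs) and by 0.22 at the second (Pre-CD8 DCs against Zbtb46+ CDPs), and without the arrays low in Xist Thy1 differed by 0.65 at the first. The counts of called genes moved more, and the cause was not tested. Quantile normalization gave 1216 genes higher at the first step and 654 lower at the second, with 4 and 2 signalling genes called and 3 other binding partners at the second. Array weights gave 2772 higher and 3658 lower at the first step, 2021 and 1041 at the second, and 3225 and 3730 over both. With them 10 and 5 relatives of Cd69 were called at the first and second step, 2 and 4 nectin family members at the second and over both, 3 and 8 other partners likewise, and 6, 8 and 9 signalling genes in the 3 comparisons. Without the arrays low in Xist, 1737 genes were higher at the first step and 2496 higher and 1570 lower at the second. The same setting called 7 and 4 relatives of Cd69, 3 nectin family members and 3 other partners at the second step, 8 other partners over both, and 4, 7 and 7 signalling genes. Fits of only the 2 groups gave 470 higher and 1388 lower at the first step and 601 higher at the second, with 0 nectin family members called at either, 1 signalling gene at the first and 0 at the second. Dropping the 30% dimmest genes gave 2 nectin family calls at the second step.

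With the replicate number as a block, 2 signalling genes were called at the second step, Csk having been added (adjusted p = 0.0421), and at the first step 2 relatives of Cd69 (in the fit of all arrays), 2 T, NK and innate lymphoid markers and 2 plasmacytoid DC markers rose and 2 plasmacytoid DC markers fell. Leaving out 1 array at a time gave 452 to 1999 genes higher and 1310 to 3269 lower at the first step. At the second it gave 458 to 1804 higher and 196 to 868 lower, the largest without replicate 1 of the Zbtb46+ CDPs. Calls among relatives of Cd69 ran from 2 to 9 and from 2 to 4 at the first and second step, and among nectin family members from 0 to 1 and from 0 to 2. Other partners ran from 0 to 2 at the second step and from 4 to 8 over both, and signalling genes from 1 to 3, from 0 to 3 and from 2 to 6 in the 3 comparisons. Dim signals limit Cd96. They also limit Cd226 and Thy1 in the Zbtb46- CDPs and Cd69 in the Pre-CD8 DCs.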
